A study of Mus musculus with 2 samples.

Results

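The genes described here encode the proteins of the cytosolic ribosome, measured in liver RNA of mice given ortho-toluidine (OTD), an aromatic amine, and of untreated mice. Members were chosen by symbol and by measured level: they were the genes of the deposited table whose symbols follow the Rpl or Rps pattern (with Rpsa, Rplp0, Rplp1 and Rplp2, and without kinases and pseudogenes) and whose mean level over both libraries was at least 10. Of 15348 listed genes, 81 had such a symbol, 77 of these reached the mean, and 4 did not. The 77 members were 31 small subunit genes (symbols starting with Rps) and 46 large subunit genes (symbols starting with Rpl). The rule used the mean of the same columns that are compared below, the family was taken up with its lower levels already known, and its counts and ratios are a description with no test.

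Both groups were female NOG-TKm30 mice, an immunodeficient strain that expresses the HSVtk mutant clone 30 cDNA from the mouse transthyretin enhancer/promoter, which is active in hepatocytes. They were 16 weeks old. The treated mice received OTD at 0.6% for 1 week and at 0.3% for the following 3 weeks, and the controls received 0%. Livers of 3 control mice were mixed for 1 library and livers of 5 treated mice for another. The treatment protocol names C57BL mice where the strain label, titles and design text name NOG-TKm30.

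Each cytosolic ribosome is built from a small subunit, which decodes the mRNA, and a large subunit, which joins amino acids. The ribosomal proteins coat and fold the ribosomal RNA, and the cell needs them in equal numbers, apart from the stalk proteins. Their mRNAs begin with a run of pyrimidines called the 5′ terminal oligopyrimidine (TOP) motif, through which the kinase mTOR and the RNA-binding protein LARP1 control their translation and stability together. The liver makes most plasma proteins and holds many ribosomes.

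A level here is the deposited value, the reads of a gene scaled to the size of its library (scaled CPM, with a factor for each library). A ratio is the OTD level over the control level, with a 95% exact Clopper-Pearson interval on the split of reads. Log2 ratios were taken after adding 1 to both levels. The libraries held 13569189 reads (control) and 14685193 reads (OTD). With 1 library per group the spread between mice and between library preparations was not measured, and every interval covers counting error only. In pooled tissue RNA, fewer cells of a type and less of an RNA per cell cannot be told apart. Libraries were made after ribosomal RNA depletion, and the ribosomal RNA precursor Rn45s still held 1.47% of all reads in control and 2.66% in OTD. Its part in the results below was not tested beyond the scaling without it, which is given beside them.

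Ribosomal protein genes were lower in the OTD library by a small amount for most members, with ratios from 0.745 to 1.05. Their median log2 ratio was −0.16 (1.12-fold lower), and that of all 7602 measured genes (mean of at least 10) was −0.0063. The log2 ratio was below 0 for 74 of the 77 members, where 51.6% of all measured genes were below 0. At least 1.1-fold lower were 50 members (64.9%; 22.5% of all measured genes), and 0 members were at least 1.1-fold higher (23.0% of all measured genes). A log2 ratio of −0.32 or lower was seen for 4 members (5.19%; 4.95% of all measured genes) and one of 0.32 or higher for 0 (7.1%). None of the 77 reached 1.5-fold or 2-fold in either direction, which 0.908% (lower) and 1.51% (higher) of measured genes did at 1.5-fold and 0.21% did in each direction at 2-fold. The members thus shared a side of 0, while few single ratios were large.

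The size of the shift depended on how the libraries were scaled. With both libraries set to the same total, the median of the members was −0.10, with 65 of 77 below 0 and 26 at least 1.1-fold lower, where 39.4% and 14.9% of all measured genes were so. With Rn45s left out of that total, it was −0.087, with 63 below 0, 21 at least 1.1-fold lower and 1 at least 1.1-fold higher, where 35.4%, 13.2% and 34.7% of all measured genes were so. These settings moved all genes alike, to medians of 0.047 and 0.065. Relative to the median of all measured genes, the members' median was lower by 0.15 (members minus all, −0.15) under both settings and as deposited.

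Reads of the 77 members made up 1.18% of the control library (160138 reads, 95% exact binomial interval 1.17 to 1.19) and 1.1% of the OTD library (160829 reads, 1.09 to 1.1). Without Rn45s in the denominator, the shares were 1.20% and 1.13%. Their summed levels were 12031 and 10743, a ratio of 0.893 (0.887 to 0.899), where the summed levels of all measured genes had a ratio of 0.961. The sum over all measured genes includes Rn45s, at 14976 in control and 26106 in OTD, and its ratio without Rn45s was not computed. The small subunit genes together had a ratio of 0.878 (0.869 to 0.888) and the large subunit genes 0.903 (0.895 to 0.911). The median log2 ratio was −0.17 for small subunit genes (30 of 31 below 0) and −0.16 for large subunit genes (44 of 46 below 0). The intervals of the summed ratios of the subunits did not overlap, but they cover counting error and not the spread between genes. The SD of log2 ratios was 0.092 within the small subunit and 0.096 within the large, and a difference between subunits was not tested.

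**Figure D1:**
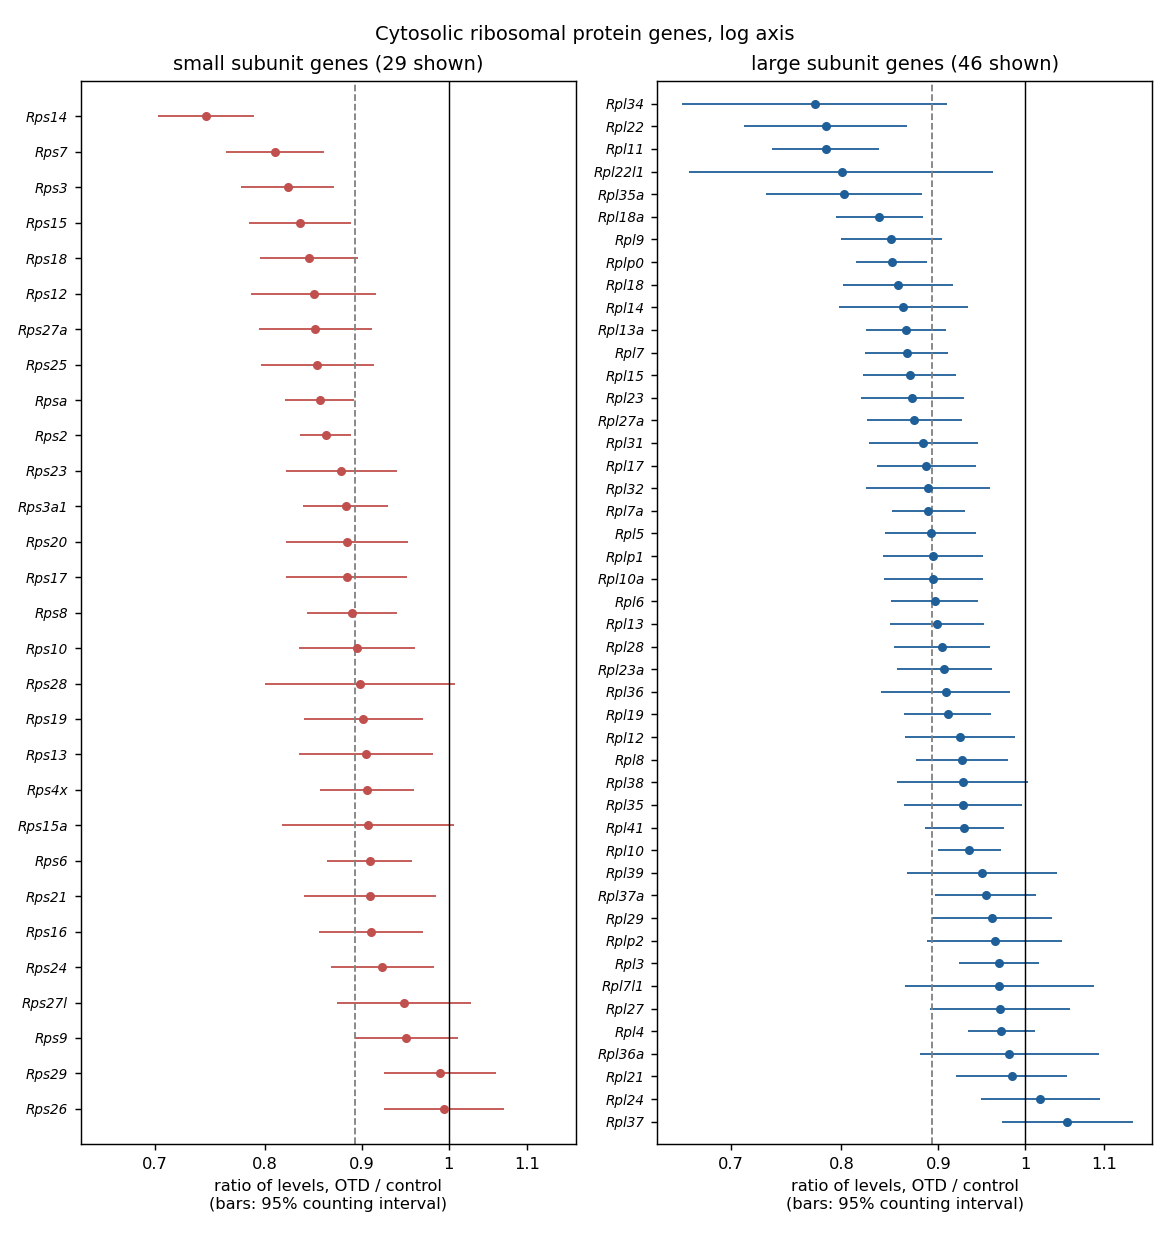
Ratio of levels, OTD over control, for 75 of the 77 members by subunit (log axis), with bars for the 95% counting interval. The solid line marks a ratio of 1 and the dashed line the ratio of the summed levels, 0.893, and 73 of the 75 points lie left of the solid line.

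Members differed from each other by more than counting error. The SD of their log2 ratios was 0.094, against 0.053 from counting alone. The counting interval lay wholly below 1 for 57 members and wholly above 1 for 0, where 19.6% and 18.6% of all measured genes did so. For the 72 members whose mean reached 50, where intervals are narrower, 69 log2 ratios were below 0 and 3 above (56.3% and 43.7% of all genes at that mean). Of these members, 55 had an interval wholly below 1 and 0 one wholly above (32.6% and 23.9%). The interval of 54 members held the summed ratio of 0.893, that of 12 lay wholly below it and that of 11 wholly above it. Across the 77 members, log2 levels of the 2 libraries had a Pearson r of 0.993, a description over genes that share the same libraries.

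In the small subunit, Rps14 had the lowest ratio of all 77 members. It stood at 190.3 in control (2533 reads) and 142 in OTD (2122 reads), a ratio of 0.745 (0.703 to 0.789). Rps2, whose protein lies at the mRNA entry channel, stood at 628 (control) and 541 (OTD), a ratio of 0.861 (0.835 to 0.888), close to that of the whole subunit. Rpsa, which encodes the ribosomal protein also known as the laminin receptor, had levels of 335 and 286 (0.855, 0.820 to 0.892). Rps27a, which encodes a ribosomal protein fused to ubiquitin, stood at 127 and 108 (0.851, 0.794 to 0.911). Rps6, the protein that S6 kinase phosphorylates downstream of mTOR, had levels of 214 and 195, a ratio of 0.908 (0.862 to 0.957). All 5 were lower in the OTD library with intervals that did not reach 1.

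Toward the other end of the small subunit, Rps26 and Rps29 had nearly equal levels in both libraries. Rps26, part of the mRNA exit channel, stood at 105 and 105 (1399 and 1565 reads; 0.995, 0.925 to 1.07). Rps29 had levels of 120.0 and 119 (0.989, 0.924 to 1.06). Both intervals held 1 and lay wholly above that of Rps14. Rps28, the small subunit member with the lowest mean, stood at 44.7 and 40.1 (0.898, 0.801 to 1.01).

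In the large subunit, Rpl11 and Rpl5 form with 5S ribosomal RNA a particle that also binds the p53 regulator MDM2. Rpl11 stood at 148 (1976 reads, control) and 117 (1745 reads, OTD), with a ratio of 0.785 (0.736 to 0.838). Rpl5 had levels of 191 and 171, a ratio of 0.892 (0.844 to 0.942). The 2 intervals did not overlap, so these partners differed by more than counting error, with Rpl11 the lower. The other large subunit genes among the 6 lowest ratios were Rpl34 (25.1 and 19.4; 0.775, 0.660 to 0.909), Rpl22 (64.2 and 50.4; 0.785, 0.711 to 0.867), Rpl35a (70.3 and 56.4; 0.803, 0.731 to 0.882) and Rpl22l1 (18.8 and 15.0; 0.800, 0.665 to 0.962).

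The stalk of the large subunit recruits translation factors and is made of Rplp0 with copies of the acidic proteins Rplp1 and Rplp2. Rplp0 had levels of 319 and 272, a ratio of 0.850 (0.814 to 0.888). Rplp1 stood at 158 and 141 (0.894, 0.841 to 0.950) and Rplp2 at 84.4 and 81.3 (0.964, 0.888 to 1.05). The interval of Rplp2 held 1, and it touched only the upper edge of that of Rplp0. The large subunit genes above 0 were Rpl37, with levels of 86.2 and 90.6 (1.05, 0.972 to 1.14), and Rpl24, with 105 and 107 (1.02, 0.947 to 1.09). Rpl21 came next, with 123 and 121 (0.984, 0.919 to 1.05). All 3 intervals held 1.

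Levels of different genes were compared per kb of transcript, using the longest principal transcript of GENCODE M21. The 6 highest members by mean level per kb were Rps2 (574 in control, 494 in OTD), Rpl10 (456 and 426), Rpl41 (424 and 394), Rps29 (308 and 304), Rpl7a (320.4 and 285) and Rplp1 (316 and 283). The median length of a gene's principal transcripts kept all 6, and the longest annotated transcript kept 5. Rpl10, which completes the large subunit late in its assembly, had a ratio of 0.934 (0.899 to 0.971). Rpl41, which encodes the shortest ribosomal protein, had 0.929 (0.885 to 0.974), and Rpl7a had 0.889 (0.850 to 0.930). On GRCm38, Rps2 lies on chromosome 17 at 24718116 to 24721929, Rpl10 on chromosome X at 74270812 to 74273135 and Rpl41 on chromosome 10 at 128548114 to 128549305, all protein-coding. The members were spread over 19 chromosomes, with 14 on chromosome 7.

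**Figure D2:**
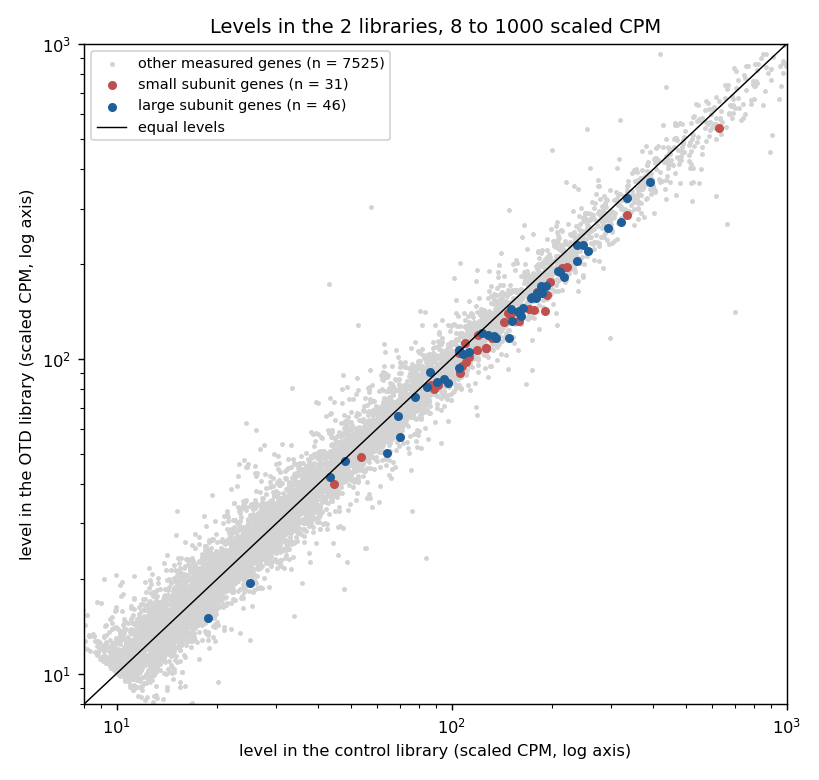
Level in the OTD library against level in the control library for the members and for the other measured genes (scaled CPM, log axes from 8 to 1000, with 133 other genes outside the axes). The members lie along and mostly just below the line of equal levels, from Rpl22l1 (18.8 in control, 15.0 in OTD) to Rps2 (628 and 541).

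Several ribosomal protein genes stood low in the table while a copy elsewhere in the genome with much the same sequence stood high. Under the mean of 10 were Rpl26 (7.06 in control, 7.08 in OTD), Rpl30 (4.73 and 4.14), the retrocopy Rps4l (2.55 and 3.07) and Rps27 (0.977 and 0.735). The members with the lowest means were Rpl22l1 and Rpl34, given above. A listed copy stood higher than the gene for Rps27, Rpl26, Rpl30 and Rpl34, but not for Rpl22l1, whose copy Gm15421 held 7 and 6 reads. Rps27 (chromosome 3, 90212522 to 90213651, minus strand) held 13 and 11 reads, while its single-exon copy Rps27rt (chromosome 9, 114982366 to 114982739, minus strand) held 1329 and 1110. The reading frames of both, 255 bases each in the GENCODE M21 transcripts, are identical, with 0 mismatches. The paralog Rps27l, a member in its own right, differs from Rps27 at 61 of the 255 bases. Bases 1 to 90 of the frames are shown because over this stretch reads of Rps27 cannot be told from those of Rps27rt but can be told from those of Rps27l. The first line holds for both copies, and capitals mark bases that differ between Rps27 and Rps27l.

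Rps27 and Rps27rt: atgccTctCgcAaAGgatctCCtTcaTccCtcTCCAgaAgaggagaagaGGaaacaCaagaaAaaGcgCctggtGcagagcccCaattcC
Rps27l: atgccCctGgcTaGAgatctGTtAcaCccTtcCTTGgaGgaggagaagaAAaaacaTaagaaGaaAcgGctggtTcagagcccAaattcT

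Rps27rt, named because it is a copy of a ribosomal protein gene, stood at 99.8 in control and 74.1 in OTD, a ratio of 0.743 (0.685 to 0.805). Per kb, Rps27 had 2.83 in control and Rps27rt 267. Summed over both rows, the levels were 101 and 74.9, a ratio of 0.743 (0.685 to 0.805), about as low as Rps14. Rps27l stood at 86.8 and 82.3, a ratio of 0.948 (0.874 to 1.03). The interval of Rps27l lay wholly above that of the Rps27 sum, so the 2 paralogs differed by more than counting error.

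The same split between gene and copy was seen for 3 more genes. Rpl26 shares 51.9% of its 50-base stretches with the processed pseudogene Gm15772, which held 1533 and 1677 reads against 94 and 106 on Rpl26. Their summed ratio was 0.974 (0.911 to 1.04). Rpl30 shares 29.7% of its stretches with the processed pseudogene Gm12191, and their summed levels were 88.0 and 79.2 (0.901, 0.830 to 0.977). Rpl34 and the processed pseudogene Rpl34-ps1 (90.8 in control, 80.8 in OTD) together had a ratio of 0.865 (0.805 to 0.929), nearer to the family than the 0.775 of Rpl34 alone. Their reading frames of 354 bases differ at 2 positions, T132C and C318G (counted from the first base of the frame, Rpl34 first). Bases 91 to 180 hold the first of these in capitals, and show how little sequence separates the reads.

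Rpl34: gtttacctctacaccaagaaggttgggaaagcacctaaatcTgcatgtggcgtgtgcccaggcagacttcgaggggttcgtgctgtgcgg
Rpl34-ps1: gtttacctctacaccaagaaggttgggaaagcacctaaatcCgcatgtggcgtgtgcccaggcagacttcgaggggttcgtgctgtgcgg

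Rpl14 and its pseudogene Rpl14-ps1 (44.3 and 45.8) had a summed ratio of 0.916 (0.859 to 0.976), against 0.862 for Rpl14 alone. Over all members, a median of 43.9% of the 50-base stretches of a transcript were also found in transcripts of other annotated genes, and for 31 members this was at least 50%. The median log2 ratio of the 46 members that shared under 50% was −0.15, and with reads summed over the listed copies it was −0.16 over 80 genes. For genes with copies, the ratio of the row itself is less certain than its counting interval.

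**Figure D3:**
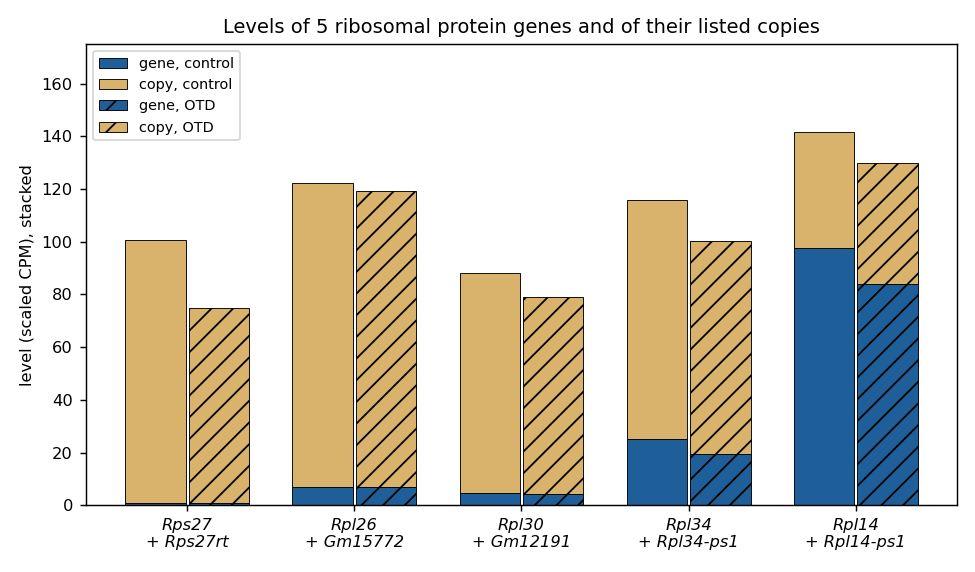
Levels (scaled CPM, not divided by length) of 5 ribosomal protein genes and, stacked on each, of the listed copy that shares its sequence, in the control library (plain) and the OTD library (hatched), 1 library each. Nearly all of the level of Rps27, Rpl26 and Rpl30 stands on the copy, and the stacked level for Rps27 is 101 in control and 74.9 in OTD.

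Ribosomal proteins outside the symbol pattern were read beside the members. Fau, which encodes a small subunit protein fused to a ubiquitin-like protein, had levels of 197 and 183 (0.931, 0.882 to 0.983). Gnb2l1, the older symbol of Rack1, whose protein sits on the small subunit, had 233 and 195 (0.837, 0.795 to 0.880). Both were lower in the OTD library with intervals below 1. Rpl36al, a copy of Rpl36a, was the exception, with 70.0 and 73.7 (1.05, 0.964 to 1.15). Its parent Rpl36a stood at 48.2 and 47.2 (0.981, 0.880 to 1.09).

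The other paralogs among the members had ratios below 1, as their parents did. Rpl22 and Rpl22l1 both had ratios near 0.8, given above, and the share of Rpl22l1 in their summed levels was 22.6% in control and 23.0% in OTD. Rpl7 had levels of 236 and 205 (0.866, 0.824 to 0.910) and Rpl7l1 43.4 and 42.1 (0.969, 0.864 to 1.09), with intervals that overlapped.

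The ribosomal protein promoters were read for the TOP start that the family is known for. RefSeq promoters on GRCm38.p6 (250 bases before to 50 after a start) matched 58 of the 77 members, with 69 starts. A run of at least 8 C or T on the coding strand, between 30 bases before and 20 bases after the start, was found at 46.4% of these starts, at 19.7% of the starts of other measured genes and at 20.2% of all 32851 in the table. The letters CCGGAAG, a core of ETS factor sites, stood on either strand at 36.2% of member starts, at 17.8% of those of other measured genes and at 8.86% of all. TATAAA stood on either strand at 10.1%, 7.58% and 13.6%, and CACGTG, which reads the same on both strands, at 11.6%, 10.3% and 7.15%. The annotated start was a C, as at TOP mRNAs, at 30.4%, 14.7% and 16.3%. These 5 features were chosen after the start sequences were seen. A match is a description of these letters and not a site.

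Members with and without such a run had close medians. The 30 members with a run at a listed start had a median log2 ratio of −0.16 and the 28 without had −0.15. A run counted anywhere in the window, also wholly before the annotated start, so this split does not mark the TOP motif of the mRNA. Whether the motif goes with the ratio was not tested. The windows below (30 bases before to 20 after the start, runs in capitals) are shown for genes from both ends of the ratios. Rpl34 and Rpl11 were among the lowest, Rps26 was near 1, and Rpl24 and Rpl37 were above it. They lie at chr3:130730318-130730367 (minus), chr4:136053374-136053423 (minus), chr10:128626487-128626536 (minus), chr16:55966245-55966294 (plus) and chr15:5116583-5116632 (plus), in that order.

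Rpl34: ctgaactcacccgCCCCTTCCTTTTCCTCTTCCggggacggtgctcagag
Rpl11: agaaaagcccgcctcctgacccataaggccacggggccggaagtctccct
Rps26: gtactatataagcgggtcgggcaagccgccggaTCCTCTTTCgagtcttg
Rpl24: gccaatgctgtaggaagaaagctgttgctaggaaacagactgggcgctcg
Rpl37: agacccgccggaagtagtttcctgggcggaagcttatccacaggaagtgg

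Rpl34 and Rps26 hold a run, and Rpl11, Rpl24 and Rpl37 hold none in this window. The genes were picked by their ratios, so a relation between run and ratio cannot be read from them. The ratio of Rpl34 also depended on its copy, at 0.865 (0.805 to 0.929) when summed with Rpl34-ps1.

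Transcript length and level both moved weakly with the ratio over the other measured genes, and members are short and abundant. The median transcript length was 887 bases for members and 3220 bases for the 7287 other measured genes with an annotated transcript. Among those other genes the median log2 ratio was −0.066 under 1000 bases (352 genes, 64.8% below 0) and −0.0011 at 1000 bases or more (6935 genes, 50.3% below 0). Under 500 bases it was −0.14 for the 26 other genes (76.9% below 0). These 26 include the ribosomal protein copies Rps27rt, Rpl34-ps1, Gm12191 and Gm15772, and a median without them was not computed. For the 9 members of that length the median was −0.14 as well (9 of 9 below 0). Members under 1000 bases had a median of −0.15 (48 genes) and those of 1000 bases or more had −0.18 (29 of 29 below 0). The part of transcript length in the result was not tested, nor was that of level. Within the members, log2 ratio and log2 length had a Pearson r of −0.098, and log2 ratio and log2 level 0.0019 (n = 77, descriptions over genes of the same libraries). Over the other measured genes, r was 0.070 for length (n = 7287) and −0.091 for level (n = 7525). The median level in control was 147 for members and 34.8 for all measured genes.

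**Figure D4:**
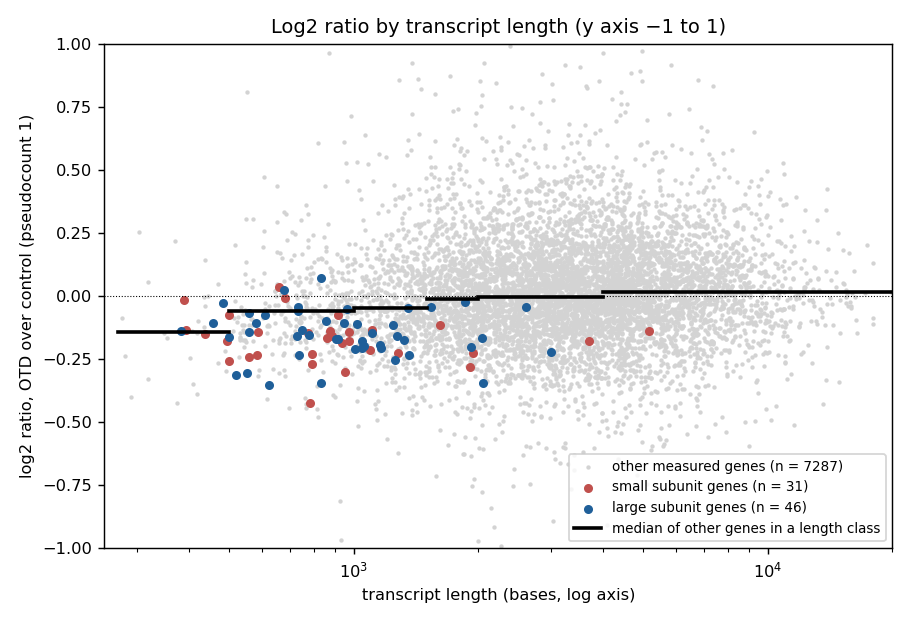
Log2 ratio, OTD over control, against transcript length (bases, log axis) for members and other measured genes, with black bars for the median of the other genes in each length class (42 other genes lie outside the axes). The members lie mostly below 0 at every length, and the black bars rise from −0.14 under 500 bases to 0.018 at 4000 bases or more.

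Related gene lists were read in the same way, to place the family among the genes it works with. The 24 measured other genes known for TOP mRNAs, which include Fau and Gnb2l1, had a median log2 ratio of −0.14. Of these, 22 were below 0 (51.6% of all measured genes), 13 at least 1.1-fold lower (22.5%) and 0 at least 1.1-fold higher (23.0%). Eef1a1, the elongation factor that brings tRNAs to the ribosome, had levels of 3729 and 3391 (0.909, 0.898 to 0.921). Naca, which binds new proteins at the ribosome exit, had 155 and 129 (0.835, 0.785 to 0.889), the lowest of the list, and Hnrnpa1, an RNA-binding protein, had 22.9 and 24.5 (1.07, 0.917 to 1.2), the highest. The TOP list thus lay on the same side as the ribosomal proteins, at a similar median. Whether the lists differ could not be tested with 1 library per group.

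Genes that build ribosomes or start translation were read next, beside the 51.6% of all measured genes that were below 0. These lists are not separate from the TOP list. Eif3e, Eif3f, Eif3h, Eif3k, Eif3l, Eif4b and Eif2s3x are also initiation factors, and Npm1 is also a biogenesis gene. Translation initiation factors had a median of −0.098 (29 of 42 below 0), with Eif4g2 at 643 and 567 (0.882, 0.855 to 0.909), Eif4enif1 lowest at 28.2 and 22.5, and Eif4g1 highest at 486 and 558 (1.15, 1.11 to 1.19). Ribosome biogenesis genes, which process ribosomal RNA and assemble subunits, had a median of −0.061 (44 of 65 below 0). Among these, Rrs1 stood at 13.2 and 8.35 (0.631, 0.498 to 0.799), Mybbp1a at 40.7 and 49.6 (1.22, 1.09 to 1.36) and the nucleolar protein gene Ncl at 125 and 122 (0.974, 0.911 to 1.04). After scaling without Rn45s the biogenesis median was 0.0071, where that of all measured genes was 0.065.

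The regulators of TOP mRNA translation had a median of −0.0079, with 7 of 14 measured genes below 0 (51.6% of all measured genes). Among them were Rps6kb1, which encodes the S6 kinase, at 37.4 and 29.5 (0.787, 0.691 to 0.897), and Mtor at 120 and 95.7 (0.800, 0.744 to 0.860). Others were not lower: Larp1 stood at 277 and 285 (1.03, 0.986 to 1.08), Rptor, a partner of mTOR, at 56.4 and 63.3 (1.12, 1.02 to 1.24), and Tsc1, an inhibitor of the pathway, at 37.9 and 43.5 (1.15, 1.02 to 1.29). Eif4g1 was the highest of this list too. Of 15 listed host genes of small nucleolar RNAs, which also carry TOP starts, 0 reached a mean of 10, and Gas5, the most abundant, stood at 7.44 and 6.21.

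Other multi-subunit complexes served as a yardstick, beside the 51.6% of all measured genes that were below 0. Mitochondrial ribosomal proteins had a median of −0.026, with 40 of 73 below 0, from Mrpl52 (0.753, 0.638 to 0.888) to Mrpl49 (1.34, 1.14 to 1.58), and Mrpl12 was the most abundant (64.9 and 61.2). Nuclear-encoded respiratory chain genes had a median of −0.12, with 66 of 76 below 0, from Ndufb2 (0.758, 0.646 to 0.888) to Atp5k (1.17, 0.971 to 1.42), and Atp5b was the most abundant (1165 and 1089). Proteasome subunits had a median of 0.062, with 12 of 40 below 0, from Psmd9 (0.904, 0.753 to 1.09) to Psmd14 (1.41, 1.24 to 1.61), and Psme4 was the most abundant (181 and 187). The respiratory chain median was the nearest of these to that of the cytosolic ribosomal proteins. After scaling to the same total and with Rn45s left out, the mitochondrial ribosomal protein median was 0.026 and 0.043 and the respiratory chain median −0.062 and −0.044, where that of all measured genes was 0.047 and 0.065.

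**Figure D5:**
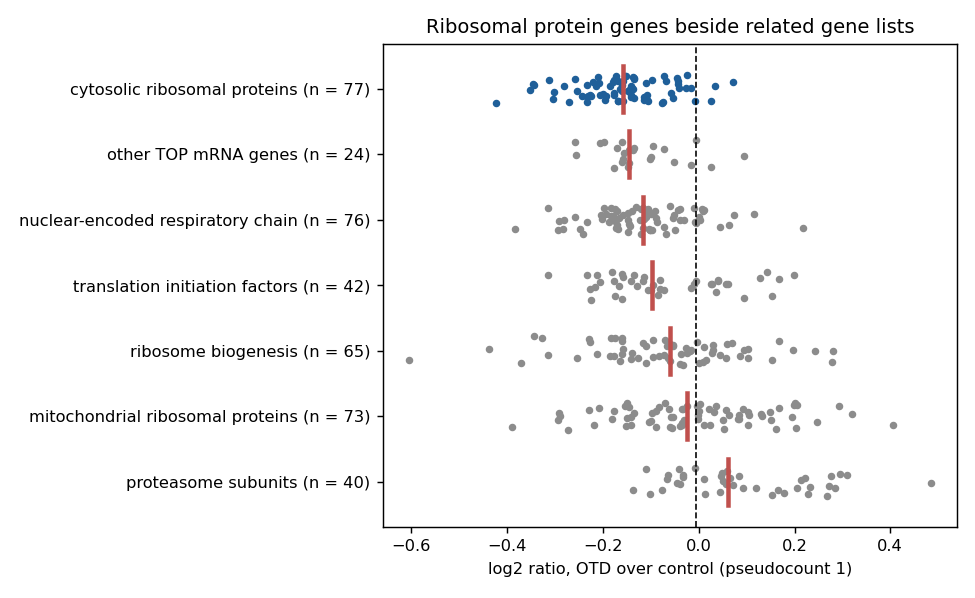
Log2 ratio, OTD over control, for each measured gene of the cytosolic ribosomal protein genes and of 6 other lists, with a red bar for each list's median and a dashed line for the median of all measured genes (vertical scatter has no meaning). Medians run from −0.16 for the ribosomal proteins to 0.062 for proteasome subunits. The TOP list shares genes with the initiation factor and biogenesis lists.

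Cell type markers were read beside the family, since the tissue mixes cell types. Hepatocyte markers defined the tissue (Alb 81661 and 69694), with a median log2 ratio of −0.090 over 6 genes, 4 of them below 0, and a summed level of 101162 (control) and 89058 (OTD). Hnf4a, a hepatocyte transcription factor, was the lowest of them at 948 and 669.9 (0.707, 0.688 to 0.725), and the urea cycle enzyme gene Cps1 the highest at 6095 and 6701. Kupffer cell markers had a median of −0.12, with 8 of 8 measured genes below 0 (51.6% of all measured genes), from Csf1r (53.2 and 47.8) to C1qb (30.7 and 30.2). Clec4f was the most abundant at 132 and 122. Under a mean of 10, Marco was higher in OTD (108 and 143 reads; 1.18, 0.911 to 1.53) and Timd4 lower (78 and 75 reads; 0.855, 0.614 to 1.19). The summed level over the 10 listed Kupffer markers was 439 and 407. Sinusoidal endothelial markers summed to 474 and 454, with Stab2 most abundant, Pecam1 lowest (0.831) and Oit3 highest (1.05). Stellate cell markers summed to 718 and 685, with Reln most abundant, Lrat lowest (0.764) and Pdgfrb highest (1.2). The cholangiocyte markers summed to 46.1 and 43.1, with Spp1 (0.941) above Sox9 (0.824). The 3 cholangiocyte markers under a mean of 10 were higher in OTD, with 10 and 13 reads for Epcam, 21 and 30 for Krt19 and 10 and 26 for Krt7 (2.31, 1.08 to 5.37). Of the 6 lymphoid markers, 0 were among the listed genes, and the proliferation markers Mki67 and Top2a together summed to 5.56 and 4.41. Each of these sums was lower in the OTD library, as was the sum over all measured genes (ratio 0.961, Rn45s included). Beside it, the sinusoidal endothelial and stellate sums of measured markers had ratios of 0.958 and 0.955. Those of the other types were lower, at 0.880 (hepatocyte, mostly Alb), 0.923 (Kupffer) and 0.894 (cholangiocyte, 0.795 to 1.01). The part of the cell types in the ribosomal protein result was not tested.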

How the data were processed

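Liver RNA was sequenced after ribosomal RNA depletion with a directional kit, per the labels' protocols, with 3 control mice or 5 OTD mice mixed per library. The deposited signal of each gene was made by the authors from read counts. The submitters' processing notes list mm10 as the build, and edgeR, RSEM, Bowtie2 and Trimmomatic 0.38 as tools, without their roles. The annotation and the strand setting of the counting are not stated there. All values of both columns (100%) were whole multiples of 1 read (tolerance 1e-06), so reads were recovered. The factor was 0.981 for control and 1.02 for OTD. The columns were matched by their words for control and OTD. With 0 residual degrees of freedom, a count test on the recovered reads could call no gene and was not run.

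Log2 ratios were taken after adding a pseudocount of 1, so differences of low genes are understated, and genes with a mean of at least 10 counted as measured. Intervals were 95% Clopper-Pearson intervals. Transcripts, lengths and positions came from GENCODE M21 on GRCm38 (14732 symbols matched, 96.0%), and promoters from RefSeq. Named members were the 6 lowest and 6 highest ratios, the 6 most abundant per kb, the 3 lowest means, all above 0, stalk genes, Rpsa, Rps27a, Rps6, Rpl5, Rpl11, paralogs and near relatives, and for other lists the most abundant, highest and lowest gene. The copies found by shared sequence, Rpl14, Gas5, Mtor, Larp1, Rptor, Tsc1, Epcam, Krt19 and Krt7 fall outside this rule and were picked with their values known. Some genes that the rule names are not reported here, but they remain in the counts and sums. The members, lists and rules were chosen with earlier results of these data known. Values were computed in Python 3.11.15 with scipy 1.17.1, pandas 2.3.3, numpy 2.4.6 and matplotlib 3.10.9.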

Additional observations from a re-analysis of the deposited data

How the results depend on the processing

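The median log2 ratio of the ribosomal protein genes was below 0 under every setting tried. It was −0.10 after scaling to the same total, −0.087 when Rn45s was also left out and −0.17 at the same upper quartile. It stayed close to the −0.16 as deposited with other pseudocounts, filters, a median of 0 over all genes, or members with little shared sequence. These differences were within the counting error of the members' summed ratio, which is not an error of the median. Among members under 1000 bases the median was −0.15 and among longer ones −0.18. Both length classes, the sums over copies and median transcript lengths were added after seeing the data. The number of members above 0 was 3 as deposited, 12 at the same total, 14 without Rn45s, and 5 at a mean of at least 1 or with no filter, where more genes entered. Of all genes under the same settings, 51.6%, 39.4%, 35.4%, 48.8% and 49.4% were below 0, in that order. At least 1.1-fold lower were 50, 26 at the same total and 21 without Rn45s, where 22.5%, 14.9% and 13.2% of all measured genes were so. At least 1.1-fold higher were 0, and 1 without Rn45s, at a mean of at least 1 or with no filter. Of all genes, 23.0%, 34.7%, 28.6% and 29.4% were so, in that order. At a log2 ratio of −0.32 or lower were 4 as deposited (4.95% of all measured genes), 2 with a pseudocount of 10, and 1 at the same total with or without Rn45s. The share of all genes past −0.32 was not computed for the latter settings. The read shares of 1.18% and 1.1% became 1.20% and 1.13% without Rn45s. Of 462 values of single members, 450 stayed within their counting interval, and 20, from 11 genes, took the other sign. Of 94 list medians, 29 moved beyond the counting error of the list's summed ratio and 11 took the other sign. That error is set mostly by a list's abundant genes and is not an error of its median. No paired analysis was possible because each group had 1 library. The read numbers (225 to 8359 per member) limit single ratios: a member's interval spanned a median of 1.14-fold.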
